A study of Mus musculus with 16 samples.

Results

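Pax5, Ebf1, Foxo1, Spib, Spi1, Ets1, Ikzf1, Ikzf3, Pou2f2 and Pou2af1 encode transcription factors that establish or maintain the identity of B lymphocytes. These 10 genes were taken by symbol from a table of 27928 genes. Their transcript levels were compared between the follicular (FO) and the marginal zone (MZ) subset of mouse splenic B cells, and between mice with and without an intact gene for TFII-I, Gtf2i, in the B lineage. RNA-seq was available for 8 libraries, with 2 libraries for each of WT FO, WT MZ, cKO FO and cKO MZ. All mice were of the C57BL/6 strain and 8 to 12 weeks old, and the labels name no treatment. WT mice carried no Cre, and cKO mice were Gtf2i fl/fl with a Cre driver of the B lineage, so that deletion begins in developing B cells. A WT group with Cre was not analysed here, and Cre and the loss of Gtf2i cannot be told apart. FO B cells had been sorted as CD21lo CD23hi and MZ B cells as CD21hi CD23lo after negative selection, at more than 90% purity.

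Pax5 and Ebf1 act at the top of the B cell programme, where they switch on genes of the B cell receptor pathway, and Pax5 also silences genes of other lineages. Foxo1, a forkhead factor held out of the nucleus by PI3K and Akt signalling, drives homing receptor and recombinase genes. Spi1 (PU.1), Spib (Spi-B) and Ets1 share the ETS DNA-binding domain, Ikzf1 (Ikaros) and Ikzf3 (Aiolos) are paralogous zinc finger factors, and Pou2f2 (Oct-2) works with its B cell coactivator Pou2af1 (OBF-1). FO B cells recirculate through lymphoid follicles and enter germinal centres, whereas MZ B cells stay at the marginal sinus and respond rapidly to blood-borne antigen.

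The labelled subsets carried their surface markers. Cr2, which encodes CD21, ranged from 22942 to 26803 normalized counts in the FO libraries and from 86953 to 97087 in the MZ libraries, and Fcer2a, which encodes CD23, was higher in FO (log2 difference 2.64, limma adjusted p = 3.41e-05). Gtf2i stood at 2040 and 1992 normalized counts in the WT FO pair, 2864 and 2471 in the WT MZ pair, 1523 and 1531 in the cKO FO pair and 1782 and 1889 in the cKO MZ pair. It was thus lower in every cKO library than in every WT library, by a log2 difference of -0.47 over both subsets (limma adjusted p = 0.0348), and with 1 library left out this adjusted p ranged from 0.061 to 0.186. The counts cover the whole gene, and which exons the deletion removes was not examined. Ddx3y, a Y-linked gene, had no more than 6.34 normalized counts in any WT library against 2682 or more in each cKO library, and Xist, which is transcribed from the inactive X chromosome, had 25930 or more in each WT library, 14748 in cKO FO replicate 1 and 89.7 or fewer in the other cKO libraries. Genotype and sex therefore cannot be told apart for any of the 10 factors, and cKO FO replicate 1 carried both transcripts. Leaving that library out cannot separate genotype from sex, and none of the 10 was called between genotypes with all 8 libraries. Summed erythroid markers reached 13304 normalized counts in cKO MZ replicate 1 against 1007 or fewer elsewhere, and granulocyte markers 1968 against 109 or fewer. T cell markers summed to between 89.6 and 243, macrophage and dendritic cell markers to between 560 and 1603, plasma cell markers to between 3035 and 7907, and the B cell markers to between 156292 and 234435. Without cKO MZ replicate 1, Foxo1 was still the member called in cKO and over both genotypes. The libraries held 21546552 to 25083552 reads on genes.

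Upstream regions are shown first for Foxo1, Pax5 and Ikzf1, which passed the adjusted p between subsets, with Spib, which did not pass, for comparison. RefSeq windows on GRCm38.p6 were matched for 7 of the 10 factors, all but Spi1, Ets1 and Ikzf3, and the 250 bases before the annotated start are given 5′ to 3′ on the strand of the gene. Capitals mark CCAAT boxes (CCAAT) and GC boxes (GGGCGG), each searched on both strands, and no 2 matches shared bases in the windows shown.

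Foxo1, chr3:52268087-52268336, plus strand: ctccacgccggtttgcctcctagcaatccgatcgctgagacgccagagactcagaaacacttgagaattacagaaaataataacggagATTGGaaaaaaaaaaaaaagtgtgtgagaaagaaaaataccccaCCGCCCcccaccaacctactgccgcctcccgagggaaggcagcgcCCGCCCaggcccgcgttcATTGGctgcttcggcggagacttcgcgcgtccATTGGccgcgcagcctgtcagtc

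Pax5, chr4:44710695-44710944, minus strand: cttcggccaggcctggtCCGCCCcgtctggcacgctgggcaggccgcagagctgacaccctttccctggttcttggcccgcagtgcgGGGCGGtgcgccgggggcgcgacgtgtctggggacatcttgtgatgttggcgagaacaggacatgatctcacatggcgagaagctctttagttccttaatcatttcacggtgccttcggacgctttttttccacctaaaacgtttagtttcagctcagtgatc

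Ikzf1, chr11:11685675-11685924, plus strand: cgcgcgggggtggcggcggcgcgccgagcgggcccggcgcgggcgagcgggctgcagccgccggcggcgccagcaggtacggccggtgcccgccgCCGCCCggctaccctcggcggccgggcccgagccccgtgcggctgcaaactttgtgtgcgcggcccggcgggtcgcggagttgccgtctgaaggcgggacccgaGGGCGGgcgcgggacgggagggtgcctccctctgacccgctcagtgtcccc

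Spib, chr7:44532072-44532321, minus strand: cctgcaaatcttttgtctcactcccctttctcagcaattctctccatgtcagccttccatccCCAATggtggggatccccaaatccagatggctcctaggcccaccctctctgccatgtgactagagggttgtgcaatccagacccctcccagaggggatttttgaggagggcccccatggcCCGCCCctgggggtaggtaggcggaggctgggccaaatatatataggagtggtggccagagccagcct

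In GENCODE M21 these windows hold no exon bases apart from 1 base of Foxo1 itself, and the Ikzf1 window lies inside the gene, between exons. The Foxo1 window held 5 of these elements, with CCAAT boxes that began 162, 55 and 23 bases upstream of the start. The Ikzf1 window shown was 82% G or C, against 58.8% for Pax5, 58% for Spib and 56% for Foxo1. Another Ikzf1 window, chr11:11689927-11690176, was 47.6% G or C and held none of these elements, so the value depends on the annotated start. A CCAAT box occurred in 33.8% and a GC box in 32.7% of all 32851 windows of this length. Motifs of some of the factors, and an E box and a TATA box as general elements, were also searched on both strands. The octamer of Oct-2 (ATGCAAAT, in 1.6% of windows), the forkhead element (GTAAACA, in 3.17%) and the Ikaros core (TGGGAA, in 21.6%) were not found in the 4 windows shown. Nor were the PU box (GAGGAA, in 23.3%), the E box (CACGTG, in 6.02%) and the TATA box (TATAAA, in 12.4%). No motif of Pax5 or Ebf1 was searched. Over all 9 windows of the 7 factors, the PU box matched in 2 and the Ikaros core in 1. No measurement of binding or accessibility was analysed here.

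On GRCm38 the genes lie at chr4:44524757-44710487 (Pax5), chr11:44617317-45008091 (Ebf1), chr3:52268336-52353221 (Foxo1), chr7:44525993-44532071 (Spib) and chr2:91082390-91115756 (Spi1). The others lie at chr9:32636221-32757820 (Ets1), chr11:11685003-11772926 (Ikzf1), chr11:98464902-98546031 (Ikzf3), chr7:25087344-25179726 (Pou2f2) and chr9:51213708-51240080 (Pou2af1). Counts cover all exons of a gene, and isoforms were not told apart.

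The first question was how strongly each factor is transcribed in mature splenic B cells. All 10 were abundant. Per kilobase of exon, the mean normalized count over the 8 libraries ran from 732 for Foxo1 to 6466 for Pou2af1, which placed them between percentiles 89.01 and 99.3 of 14748 expressed genes. Pou2af1 and Spib (6267 per kilobase) led the order, and each was the higher of the pair in 4 of 8 libraries. Pax5 (3628) and Ets1 (3266) came next with overlapping ranges, followed by Ikzf1 (2337) and Ikzf3 (2017), whose order was split 4 to 4 over the 8 libraries. Pou2f2 (1179) was separated from Ikzf3 above it and from Ebf1 below it in 8 of 8 libraries, and Spib was likewise separated from Pax5. Ebf1 (836), Spi1 (806) and Foxo1 (732) closed the order, and neighbours among these had overlapping ranges. The range of the per-library counts within a gene was small, since the highest library exceeded the lowest by between 1.29-fold for Pou2af1 and 1.89-fold for Ikzf3.

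**Figure D1:**
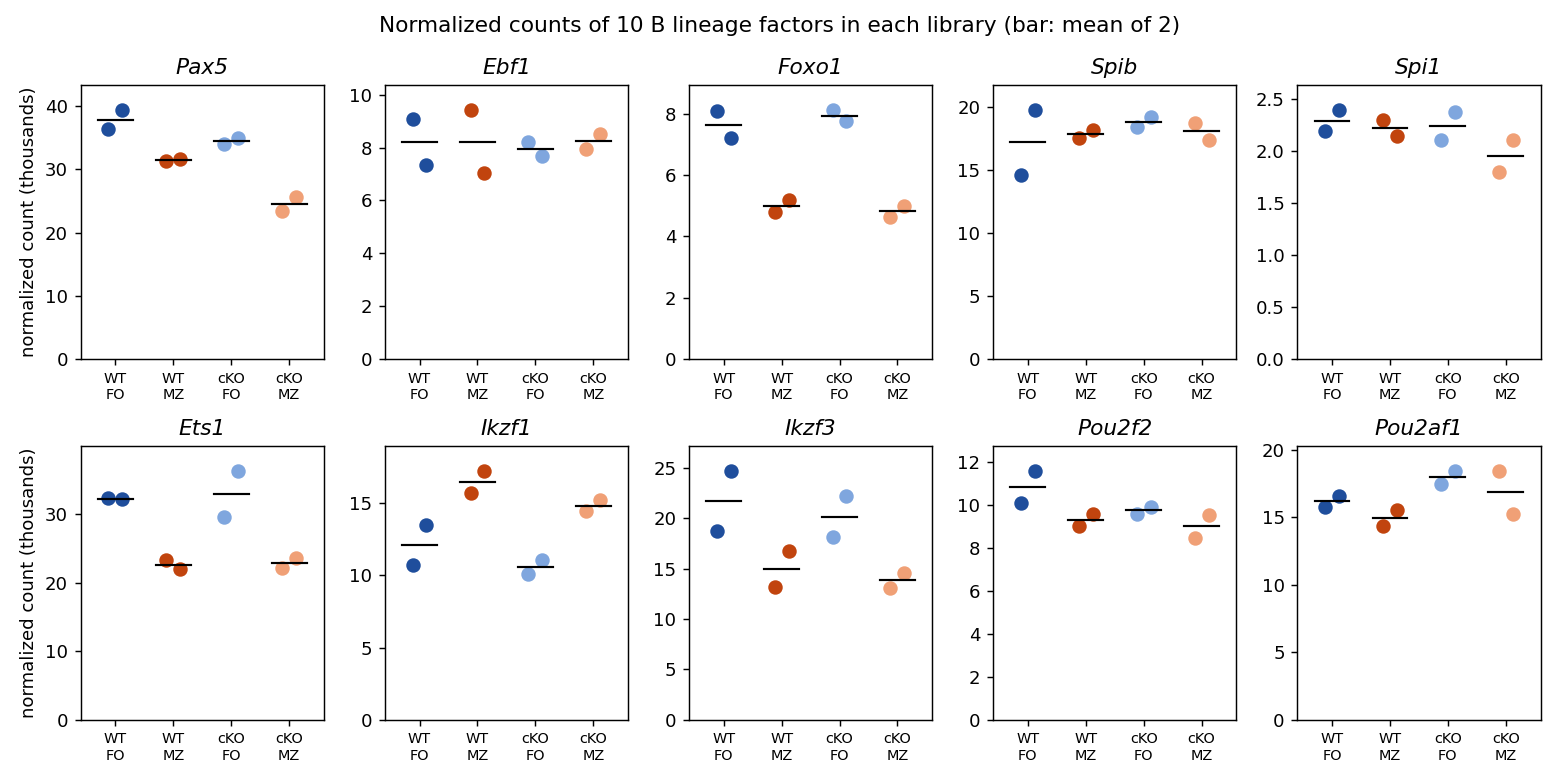
Normalized count (vertical axes, each starting at 0) of the 10 factors in the 8 libraries, with dots for the 2 libraries of each group and bars for their mean. Foxo1, Ets1, Ikzf3 and Pax5 lie higher in all 4 FO libraries than in the 4 MZ libraries, Ikzf1 lies higher in the MZ libraries, and Ebf1, Spib and Spi1 overlap.

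FO and MZ B cells were then compared. A call needed a p of 0.05 or less after Benjamini-Hochberg adjustment together with a 1.5-fold difference or more in limma, fitted to log2(normalized count + 1) of all 14761 genes with a mean of at least 10 normalized counts. Foxo1 alone of the 10 factors was called, and it was higher in FO in WT, in cKO and over both genotypes. Genes called higher in FO made up 4.62% of those tested in WT, 5.54% in cKO and 7.94% over both genotypes, and genes called higher in MZ 7.41%, 8.18% and 11.6%, so 1 of 10 called higher in FO is near the background. When the adjusted p alone was asked for, 3 of the 10 passed in WT (Foxo1 and Ets1 higher in FO, Ikzf1 higher in MZ), 4 in cKO (also Pax5, higher in FO) and 5 over both genotypes (also Ikzf3, higher in FO). The shares of all genes tested were 16.9%, 19.6% and 37.9%. With 1 library left out, the number passing ran from 1 to 2 in WT and from 1 to 5 in cKO, and stayed at 5 over both genotypes. It was 1 in WT without WT FO replicate 1, WT MZ replicate 1 or WT MZ replicate 2, and 1 in cKO without cKO FO replicate 2 or cKO MZ replicate 1. Such a fit leaves 1 library in a group, so these numbers are not read as a result about the factors. The median log2 difference of the 10 factors over both genotypes was 0.15, against 0.0045 for all genes tested. In bulk samples, fewer cells of a type and less RNA per cell cannot be told apart. Nothing states whether libraries of a group came from separate mice, so p-values measure the spread between these libraries, which may be technical.

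Foxo1 had 8081 and 7193 normalized counts in the WT FO pair, 4788 and 5175 in the WT MZ pair, 8123 and 7744 in the cKO FO pair and 4640 and 4988 in the cKO MZ pair. All 4 FO libraries lay above all 4 MZ libraries, and the ranges of the genotypes overlapped within each subset. The log2 difference was 0.62 in WT (95% CI 0.40 to 0.83, limma adjusted p = 0.00451) and 0.72 in cKO (0.50 to 0.94, adjusted p = 0.00196), and over both genotypes it amounted to 1.59-fold (adjusted p = 6.53e-05). The position of Foxo1 close to the 1.5-fold limit decided its call in some settings. Quantile normalization gave log2 differences of 0.50, 0.57 and 0.53 in the 3 comparisons, under the limit with adjusted p of 0.00894, 0.00442 and 0.000156, and without WT FO replicate 1 or WT MZ replicate 1 the WT value was 0.53 or 0.56. GENCODE M21 places exons of the antisense gene Gm20402 over 674 bases of Foxo1 exons (7.78%), and the strand setting of the counting is not given, so reads from the pair cannot be told apart there.

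Ets1, an ETS factor that holds back plasma cell differentiation, had 32320 and 32154 normalized counts in the WT FO pair, 23291 and 21964 in the WT MZ pair, 29563 and 36361 in the cKO FO pair and 22111 and 23667 in the cKO MZ pair. Here too the 4 FO libraries all exceeded the 4 MZ libraries. The log2 difference was 0.51 in WT (95% CI 0.24 to 0.78, limma adjusted p = 0.0236) and 0.52 in cKO (0.25 to 0.79, adjusted p = 0.0198), which is 1.43-fold over both genotypes and below the limit for a call. Without cKO FO replicate 1 it passed that limit in cKO, at 0.67, and without cKO FO replicate 2 it was 0.37 (limma adjusted p = 0.0993). The adjusted p missed the threshold in 5 of 15 alternatives in WT (largest 0.101, without WT MZ replicate 2) and in 3 of 15 in cKO (largest 0.134, without cKO MZ replicate 1), and passed in every alternative over both genotypes.

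Ikzf3 and Ikzf1, the Aiolos and Ikaros paralogues, differed between subsets in opposite directions. Ikzf3 had 18742 and 24716 normalized counts in the WT FO pair, 13214 and 16708 in the WT MZ pair, 18086 and 22168 in the cKO FO pair and 13108 and 14524 in the cKO MZ pair. Its FO libraries were all above its MZ libraries, but the FO replicates were far apart, and the log2 difference of 0.54 over both genotypes (95% CI 0.27 to 0.80, limma adjusted p = 0.00612) did not reach 1.5-fold. Within a single genotype its adjusted p was 0.0803 in WT and 0.0707 in cKO. Without WT FO replicate 1, WT MZ replicate 2 or cKO FO replicate 1, Ikzf3 was called over both genotypes at log2 differences of 0.62, 0.60 and 0.59.

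Ikzf1 had 10715 and 13489 normalized counts in the WT FO pair, 15710 and 17260 in the WT MZ pair, 10086 and 11055 in the cKO FO pair and 14450 and 15227 in the cKO MZ pair. It was the only factor of the 10 with every MZ library above every FO library. The log2 difference, FO minus MZ, was -0.45 in WT (95% CI -0.74 to -0.16, limma adjusted p = 0.0447) and -0.49 in cKO (-0.78 to -0.20, adjusted p = 0.0305), and 1.39-fold over both genotypes. Under quantile normalization it was called higher in MZ in all 3 comparisons, at log2 differences of -0.60, -0.61 and -0.60, and without WT FO replicate 2 it was called in WT at -0.62. Some other settings kept this direction but missed the adjusted p. In WT its adjusted p passed in 6 of 15 alternatives, and without WT FO replicate 1 the log2 difference was -0.29 (limma adjusted p = 0.201). In cKO the adjusted p passed in 11 of 15 alternatives and was lost on leaving out any 1 of the 4 cKO libraries (0.078 to 0.167), whereas over both genotypes it passed in every alternative run.

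**Figure D2:**
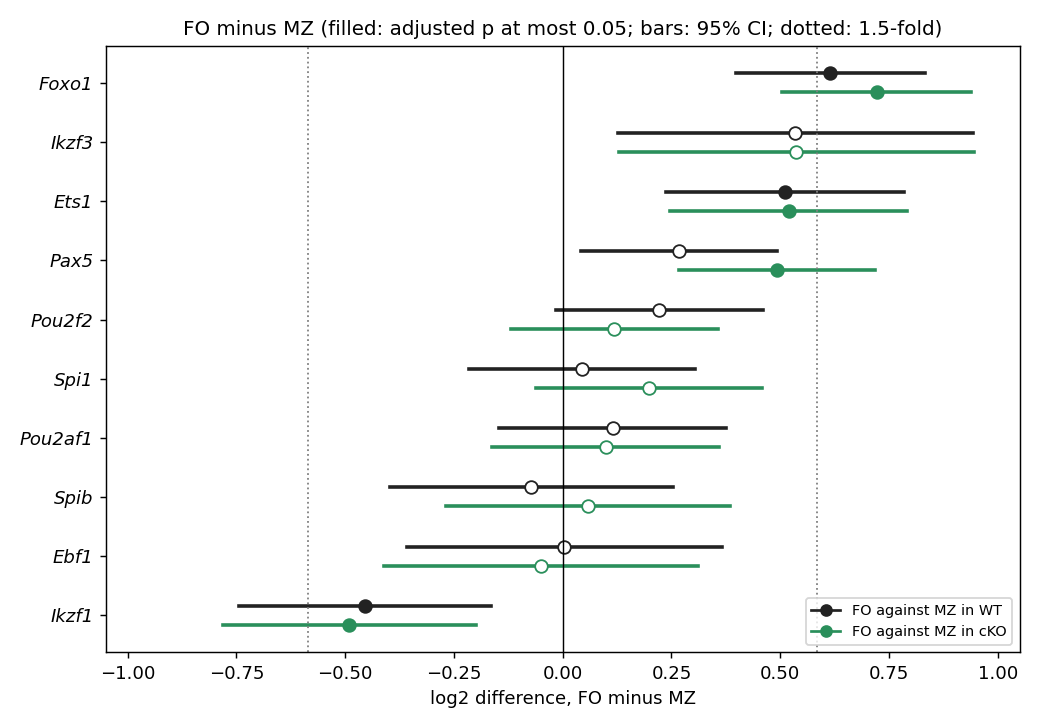
Log2 difference FO minus MZ (horizontal axis) of the 10 factors in WT (black) and in cKO (green), with bars for the 95% confidence interval, filled dots for an adjusted p of at most 0.05 and dotted lines at 1.5-fold. Foxo1 is the only gene with both dots past 1.5-fold, and Ikzf1 the only one with both filled dots on the MZ side.

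Pax5, the factor that commits progenitors to the B lineage, had 36360 and 39413 normalized counts in the WT FO pair, 31322 and 31598 in the WT MZ pair, 34091 and 35016 in the cKO FO pair and 23482 and 25696 in the cKO MZ pair. FO libraries were again all above MZ libraries, and the cKO MZ pair was the lowest. The FO minus MZ log2 difference was 0.27 in WT (95% CI 0.042 to 0.49, limma adjusted p = 0.106), 0.49 in cKO (0.27 to 0.72, adjusted p = 0.0113) and 0.38 over both genotypes (adjusted p = 0.00325). In cKO the adjusted p was 0.0611, 0.0679 or 0.0967 without cKO FO replicate 1, cKO FO replicate 2 or cKO MZ replicate 1. The WT and cKO values were not shown to differ, since the interaction of genotype and subset was -0.23 (95% CI -0.54 to 0.093, limma adjusted p = 1). Exons of 5730488B01Rik, on the opposite strand with a mean of 157.6 normalized counts, share 636 bases with Pax5 exons, and those of Gm12462, also opposite, share 125.

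Pou2f2, the gene of Oct-2, had 10111 and 11596 normalized counts in the WT FO pair, 9016 and 9554 in the WT MZ pair, 9599 and 9901 in the cKO FO pair and 8446 and 9544 in the cKO MZ pair. The lowest FO library, at 9599, lay just above the highest MZ library, at 9554, and the log2 difference of 0.17 over both genotypes did not pass (95% CI 0.016 to 0.33, limma adjusted p = 0.0791). Its coactivator Pou2af1 had 15760 and 16590 normalized counts in the WT FO pair, 14348 and 15548 in the WT MZ pair, 17489 and 18431 in the cKO FO pair and 18458 and 15227 in the cKO MZ pair. The subsets overlapped, with a log2 difference of 0.11 over both genotypes (95% CI -0.057 to 0.27, limma adjusted p = 0.278).

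Ebf1, which acts with Pax5 in early commitment, had 9068 and 7344 normalized counts in the WT FO pair, 9429 and 7028 in the WT MZ pair, 8215 and 7682 in the cKO FO pair and 7946 and 8517 in the cKO MZ pair. The replicates of WT were farther apart than the subsets, and the log2 difference over both genotypes was -0.023 (95% CI -0.26 to 0.21, limma adjusted p = 0.878). Spib had 14604 and 19762 normalized counts in the WT FO pair, 17542 and 18180 in the WT MZ pair, 18421 and 19160 in the cKO FO pair and 18745 and 17378 in the cKO MZ pair. WT FO held both its lowest and its highest library, and the log2 difference was -0.0071 (95% CI -0.22 to 0.21, adjusted p = 0.962). Spi1, the gene of PU.1, had 2184 and 2392 normalized counts in the WT FO pair, 2293 and 2143 in the WT MZ pair, 2102 and 2370 in the cKO FO pair and 1798 and 2105 in the cKO MZ pair. Subsets overlapped for this gene as well, with a log2 difference of 0.12 (95% CI -0.053 to 0.30, limma adjusted p = 0.246). For Ebf1, Spib, Spi1, Pou2f2 and Pou2af1, the intervals over both genotypes exclude a difference of 1.5-fold in either direction.

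Separation without overlap between the 4 FO and the 4 MZ libraries was seen for 6 of the 10 factors, 5 higher in FO (Pax5, Foxo1, Ets1, Ikzf3 and Pou2f2) and 1 higher in MZ (Ikzf1). Of all genes tested, 36.5% were separated in this way.

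Ratios of partners or paralogues within a library do not depend on how libraries were scaled to each other. The ratio of Ikzf3 to Ikzf1 was read first. On the log2 scale it stood at 0.81 and 0.87 for the WT FO pair, -0.25 and -0.047 for the WT MZ pair, 0.84 and 1.00 for the cKO FO pair and -0.14 and -0.068 for the cKO MZ pair. Ikzf3 counts thus exceeded Ikzf1 counts in each FO library and fell short of them in each MZ library, with means of 0.88 ± 0.086 (SD, n = 4) and -0.13 ± 0.091. The difference of 1.01 had p = 0.0286 in a two-sided exact permutation test over the 8 libraries. This is the smallest p that 4 against 4 allows, and the exact p became 0.0857 after adjustment over the 3 ratios. Each gene already separated the subsets, in opposite directions, so this p was fixed in advance and adds no support. Comparing the counts of 2 genes of different length says nothing of which has more transcripts, so only the difference between subsets is read here.

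The ratio of Spib to Spi1, the paired ETS factors, was between 2.74 and 3.13 on the log2 scale in FO and between 2.93 and 3.38 in MZ. The ranges overlapped, and the difference of -0.13 had p = 0.457 (two-sided exact permutation test). The ratio of Pou2af1 to Pou2f2 was between 0.52 and 0.90 in FO and between 0.67 and 1.13 in MZ, a difference of -0.064 with p = 0.714 in the same exact test. Between genotypes, cKO minus WT, the ratios differed by 0.26 for Pou2af1 to Pou2f2, 0.19 for Spib to Spi1 and 0.063 for Ikzf3 to Ikzf1. The exact permutation p was 0.0571, 0.171 and 0.686 in that order. After adjustment over the 3 ratios the exact p was 0.171, 0.257 and 0.686.

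**Figure D3:**
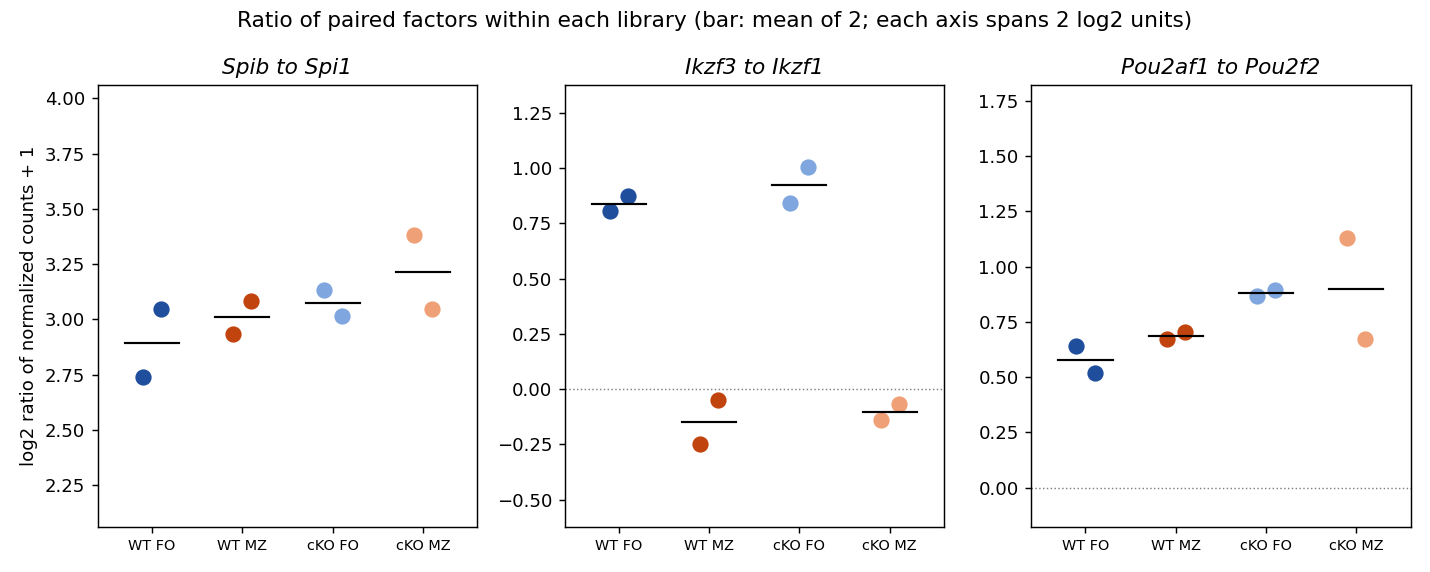
Log2 ratio of the normalized counts of 3 gene pairs (vertical axes, each spanning 2 log2 units) in the 8 libraries, with dots for libraries and bars for the mean of each group. The ratio of Ikzf3 to Ikzf1 lies above 0 in all 4 FO libraries and below 0 in all 4 MZ libraries, whereas the groups overlap for the other pairs.

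The next question was whether loss of Gtf2i altered these factors. None of the 10 was called between cKO and WT in FO, in MZ or over both subsets, with 0, 1 and 1 of them at an unadjusted p under 0.05 in limma, and DESeq2 and edgeR also called 0 in each comparison. Among all genes tested the called share was 0.0677% in FO, 0.0339% in MZ and 0.149% over both subsets, so an uncalled set of 10 is what the background gives. The smallest adjusted p of the 10 was 1 in FO, 0.932 in MZ and 0.452 over both subsets. All 20 of the 95% confidence intervals, 1 for each factor in each subset, lay within 1.5-fold, with outer bounds of -0.58 and 0.47 on the log2 scale, and 19 of them covered 0.

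The interval that did not cover 0 was that of Pax5 in MZ. The log2 difference, cKO minus WT, was -0.36 (95% CI -0.58 to -0.13, limma adjusted p = 0.932, unadjusted 0.00663). It was -0.13 in FO (-0.36 to 0.093) and -0.24 over both subsets (adjusted p = 0.452), and Pax5 was lower in both cKO libraries than in both WT libraries in each subset. Over the alternatives tried, the adjusted p in MZ ran from 0.187 with DESeq2 to 1. The lower bound of -0.58 lies only just inside 1.5-fold. The cKO MZ replicate with raised erythroid and granulocyte markers was the lower of its pair for Pax5. Without it the difference in MZ was -0.29, and without the other cKO MZ replicate it was -0.42.

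Separation of the genotypes was also counted. In FO, 3 of the 10 factors had no overlap between the 2 cKO and the 2 WT libraries (Pax5 and Pou2f2 lower, Pou2af1 higher in cKO), against 24% of all genes tested. In MZ, 3 had none (Pax5, Spi1 and Ikzf1, each lower in cKO), against 34.5%. Foxo1 and Ets1, which separated FO from MZ, differed between genotypes over both subsets by log2 values of 0.0039 (95% CI -0.14 to 0.15) and 0.020 (-0.15 to 0.19). Ikzf1 and Ikzf3 gave -0.17 (-0.35 to 0.015) and -0.11 (-0.37 to 0.16), and Pou2af1 gave 0.16 (-0.0052 to 0.32). The values for Ebf1 (-0.012), Spib (0.080), Spi1 (-0.11) and Pou2f2 (-0.10) had intervals that reached from -0.29 at the lowest to 0.29 at the highest.

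**Figure D4:**
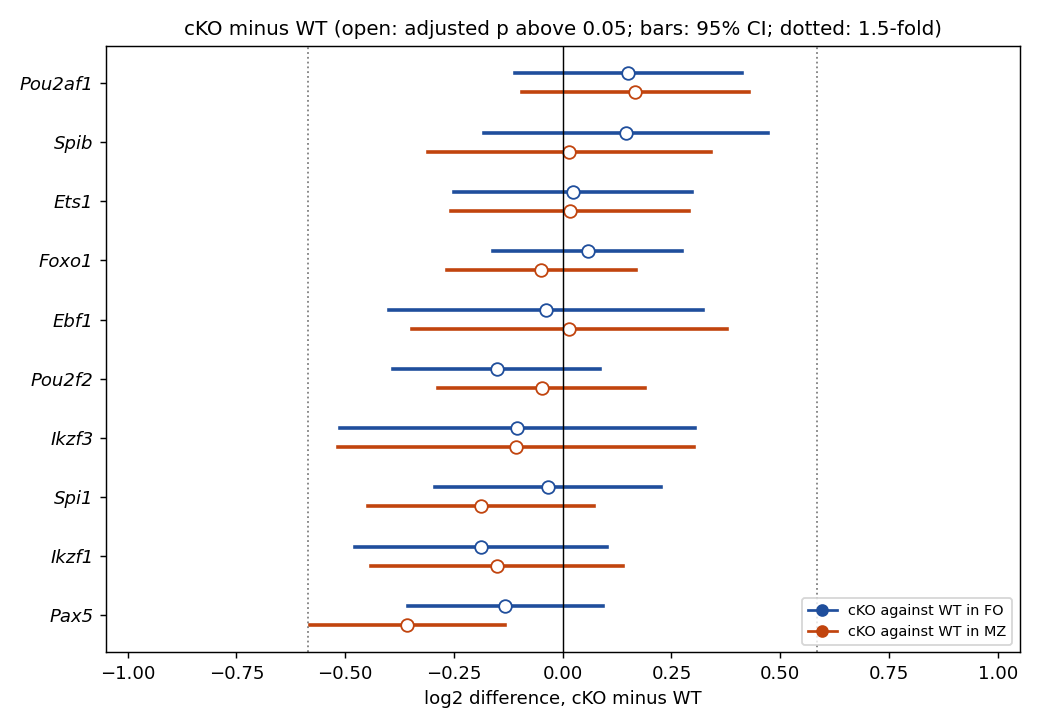
Log2 difference cKO minus WT (horizontal axis) of the 10 factors in FO (blue) and MZ (orange), with bars for the 95% confidence interval and dotted lines at 1.5-fold. All dots are open (adjusted p above 0.05), all intervals stay between the dotted lines, and only that of Pax5 in MZ leaves out 0.

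The interaction of genotype and subset, which asks whether loss of Gtf2i moved FO and MZ differently, was called for 0 of the 10 factors and for 0% of all genes in limma. None of the 10 had an unadjusted p under 0.05, against 94 of 14761 genes, and DESeq2 and edgeR likewise called 0. The interaction of Foxo1 was -0.11 (95% CI -0.41 to 0.20).

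Relatives of the factors from the same families were examined next. Of 25 listed ETS, Ikaros, FOXO, POU and EBF genes, 17 were expressed highly enough to test. Over both genotypes 2 were called higher in FO and 2 higher in MZ, against 7.94% and 11.6% of all genes tested. Fli1, an ETS factor of blood and endothelial cells, ranged from 4085 to 5183 normalized counts in FO and from 1629 to 2451 in MZ (log2 difference 1.26, limma adjusted p = 4.04e-05). Foxo4, a paralogue of Foxo1, ranged from 1883 to 2143 in FO and from 1109 to 1296 in MZ (0.72, adjusted p = 8.06e-05). On the MZ side were Elk3, an ETS repressor, at 1339 to 1411 in FO and 2172 to 2564 in MZ (-0.77, limma adjusted p = 2.83e-05), and Spic, the closest relative of Spi1 and Spib, at 62.8 to 159 in FO and 159 to 293 in MZ (-1.18, adjusted p = 0.000446). The median log2 difference of the 17 was 0.17. Between genotypes 0 of the 17 were called by limma or edgeR, whereas DESeq2 called Spic.

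Genes that Pax5 and Ebf1 activate did not share 1 direction between the subsets. Of 14 tested, 4 were called higher in FO and 3 higher in MZ, against 7.94% and 11.6% of all genes tested. The median log2 difference was -0.054. Bach2, a repressor that delays plasma cell formation, ranged from 8345 to 9468 normalized counts in FO and from 2053 to 2685 in MZ (log2 difference 1.94, limma adjusted p = 1.28e-06), and Vpreb3 from 1344 to 1798 and from 548 to 816 (1.09, adjusted p = 0.000596). The kinase gene Blk ranged from 13343 to 16163 in FO and from 24723 to 27437 in MZ (-0.84, limma adjusted p = 1.66e-05), and the adaptor gene Nedd9 from 8729 to 9616 and from 13016 to 16569 (-0.68, adjusted p = 0.000379).

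Genes that Pax5 represses include regulators of other lineages and of plasma cells. Of 10 tested from 12 listed, 1 was called higher in FO and 4 higher in MZ, and the median log2 difference was -0.50. The shares of all genes tested were 7.94% and 11.6%. Prdm1, which encodes the plasma cell regulator Blimp-1, ranged from 77.1 to 153 normalized counts in FO and from 279 to 594 in MZ (-1.79, limma adjusted p = 0.00146), and Ly6a (Sca-1) from 3677 to 5395 and from 8399 to 10746 (-1.03, adjusted p = 0.000478). Cd33, a myeloid lectin gene, was near the filter at 4.99 to 7.61 in FO and 16.3 to 30.9 in MZ (-1.58, limma adjusted p = 0.00439). The exception was Grap2, an adaptor gene, at 7182 to 9455 in FO and 2940 to 4867 in MZ (1.21, adjusted p = 0.000285). Without cKO MZ replicate 1, the library with raised granulocyte and erythroid markers, the median was -0.32 and Flt3 was no longer called. That fit leaves 1 cKO MZ library, so a smaller group and the absence of granulocyte and erythroid cells cannot be told apart. The part of those cells in this list was not tested. Between genotypes limma and edgeR called 0 of the 10, and DESeq2 called Flt3.

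Targets of Foxo1 include receptors that direct lymphocyte traffic. Of 13 tested from 14 listed, 4 were called higher in FO and 1 higher in MZ, with a median log2 difference of 0.39. Among all genes tested these shares were 7.94% and 11.6%. Ccr7, the chemokine receptor that guides cells to T zones, ranged from 10945 to 19574 normalized counts in FO and from 3121 to 5789 in MZ (1.94, limma adjusted p = 0.000221). Klf2, a factor of quiescence and homing, ranged from 16010 to 25736 in FO and from 5618 to 14383 in MZ (1.28, limma adjusted p = 0.00564). S1pr1, a receptor for sphingosine-1-phosphate that retains MZ B cells in the marginal zone, was the exception, at 8617 to 10489 in FO and 13698 to 16887 in MZ (-0.62, limma adjusted p = 0.000158). Without cKO MZ replicate 1, 3 were called higher in FO and 2 higher in MZ, since Pik3ip1 was lost and Gadd45a gained, names that were chosen after their values were seen. Over both subsets 0 of the 13 were called between genotypes by limma, DESeq2 or edgeR.

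Targets of Spi1, Spib, Pou2f2 and Pou2af1 gave 1 call in each direction among 8 tested. Of all genes tested, 7.94% were called higher in FO and 11.6% higher in MZ. Cd36, a scavenger receptor gene regulated by Oct-2, ranged from 616 to 884 normalized counts in FO and from 4814 to 6373 in MZ (log2 difference -2.96, limma adjusted p = 5.64e-07). P2ry10, a receptor gene, ranged from 8135 to 16082 in FO and from 3589 to 8057 in MZ (1.18, adjusted p = 0.0105). Of 23 partner factors and cofactors, 2 were called higher in FO and 1 higher in MZ, against the same shares. Lmo2, an adaptor of transcription factor complexes, ranged from 5709 to 7707 in FO and from 2451 to 3043 in MZ (1.27, limma adjusted p = 2.72e-05), and Mef2c, a MADS box factor, from 12752 to 16243 and from 6192 to 8329 (1.04, adjusted p = 2.04e-05). Tcf4, which encodes an E protein, ranged from 4601 to 4930 in FO and from 6746 to 8025 in MZ (-0.61, limma adjusted p = 9.75e-05). The median of the 23 was 0.12, and the number called went from 3 to 5 under quantile normalization or without WT FO replicate 2. Between genotypes over both subsets, limma, DESeq2 and edgeR called 0 of either list.

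**Figure D5:**
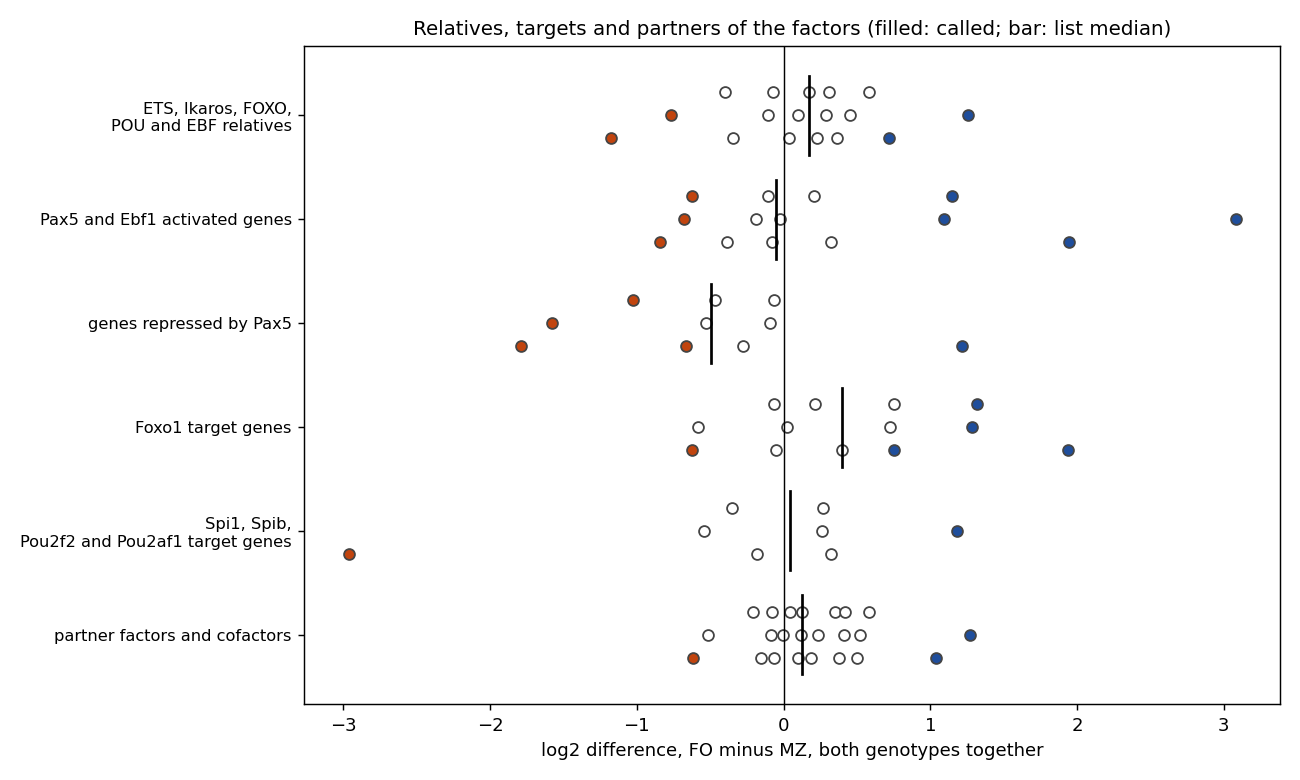
Log2 difference FO minus MZ over both genotypes (horizontal axis) of each tested gene in 6 lists, with filled dots for called genes (blue higher in FO, orange higher in MZ) and a bar at the median of each list. Genes repressed by Pax5 have the lowest median (-0.50) and Foxo1 targets the highest (0.39).

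Patterns over the 8 libraries were compared by Pearson's r on log2 values, as a description, since the points share libraries and scaling and fall into an FO and an MZ set. For Foxo1 the closest genes were Fxyd5 (r = 0.999), Hspbp1 (0.997) and Rassf3 (0.996), and the closest of the other factors was Ets1 at 0.92. Ets1 itself was closest to Gm12490 (0.994), Csad (0.992) and Gabarap (0.991). For Ikzf3 these were Ifngr2 (0.993), Xkrx (0.993) and Amz2 (0.991), with Pou2f2 at 0.89. Pax5 was nearest to Arhgap26 (0.99), Naa60 (0.987) and Acly (0.984), and Ikzf3 followed at 0.84. These FO-biased factors thus had genes of very similar pattern outside the 10, and between 481 and 1050 genes were closer to each than its nearest fellow factor.

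Ikzf1, the MZ-biased factor, was closest to Slc25a12 (r = 0.994), Txnrd1 (0.991) and Ewsr1 (0.99), and no other factor of the 10 came nearer than Spib at 0.20. Pou2f2 was closest to Ash1l (0.988), Uimc1 (0.975) and Lrrc32 (0.969). The factors with overlapping subsets had weaker nearest matches, and with 8 points the best of all tested genes is high by construction. Spi1 was closest to Ppp3cb (0.959), Aim2 (0.957) and Pygo2 (0.948). Ebf1 was closest to Ddx50 (0.972), Pik3r5 (0.965) and Ankrd12 (0.959), and the nearest of the 10 was Spi1 at -0.025. Spib was closest to Copz1 (0.943), AC154013.1 (0.935) and Mpv17l (0.916), and Pou2af1 to Aqp3 (0.947), Igkv9-123 (0.94) and Tmem106b (0.938), the nearest factor for each being the other at 0.48.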

How the data were processed

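RNA-seq of 8 splenic B cell libraries was used, and the 8 ATAC-seq samples were not analysed here. RNA was depleted of rRNA and read as 50 bp single ends. The authors aligned reads to mm10 with HISAT2, counted them per gene and divided by DESeq2 size factors, so the deposited signal values are normalized counts; tool versions, annotation and strand setting are not given in the sources used here. Multiplying by the size factor gave whole reads for 100% of values in each library (tolerance 0.01), which served DESeq2 1.42.0 and edgeR 4.0.16 as alternatives; over both genotypes they called 1208 and 1176 genes higher in FO and 1894 and 1727 higher in MZ. The main test was limma 3.58.1 (R 4.3.3; eBayes with a trend; a fit of 4 groups, or of subset plus genotype for values over both) on log2(normalized count + 1) of 14761 genes with a mean of at least 10, adjusted over all of them. Ratios had exact permutation tests over libraries. Positions came from GENCODE M21. The scripts were tested on simulated data. The 10 genes and the lists were chosen with earlier results of these data known. Genes of a list were named by the smallest p among those called, up to 4 a list. Replicates of each group differed by more than sampling noise. Results on some genes of the lists are not reported here.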

Additional observations from a re-analysis of the deposited data

How the results depend on the processing

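Foxo1 was the member called higher in FO in the main comparisons. With no fold minimum 3, 4 and 5 members passed in WT, cKO and both genotypes, against 16.9%, 19.6% and 37.9% of all genes tested. At 2-fold or more the numbers were 0, 0 and 0. Of all 14761 genes, 390, 444 and 590 were then called higher in FO and 794, 881 and 1114 higher in MZ, so 0 of 10 is near the background. With 1 library left out the numbers called ran from 0 to 2 in WT, 1 to 2 in cKO and 1 to 2 over both. Such a fit leaves 1 library in a group, so these numbers are not read as a result about the members. The replicate numbers were not shown to pair libraries in all groups (correlations of deviations from -0.296 to 0.591). The highest was between WT FO and WT MZ, whereas cKO FO with cKO MZ gave -0.0015. Whether FO and MZ libraries of 1 number share mice is not stated. With the replicate block the numbers of members called at 1.5-fold did not change. Of all genes, those called higher in FO went from 682 to 789 in WT, 818 to 934 in cKO and 1172 to 1238 over both. Those called higher in MZ went from 1094 to 1184, 1208 to 1328 and 1705 to 1764. Members are counted again next. Those passing the adjusted p went from 3 to 4 in WT, 4 to 5 in cKO and 5 to 6 over both. With the block, Ikzf3 passed in WT (limma adjusted p = 0.00698) and cKO (0.00604), and Pou2f2 over both (0.0315). With no block, a fit of the 4 WT libraries alone left 1 passing in WT; the Ikzf3 to Ikzf1 ratio differed by 1.01 with the block (exact p = 0.125), 0.99 within WT and 1.03 within cKO (exact p = 0.333 in each), the smallest p these designs allow. Small log2 differences changed sign. Quantile normalization gave, FO minus MZ, Ebf1 -0.13 in WT and Spib -0.071, Pou2f2 -0.041 and Pou2af1 -0.0079 in cKO; cKO minus WT, Foxo1 0.0067 and Pou2f2 0.018 in MZ and Ebf1 0.040 over both; and interactions of 0.0054 for Ets1 and 0.025 for Ikzf3. DESeq2 gave Ebf1 -0.0039 in WT and Spib 0.00063 over both, and edgeR Ebf1 -0.0052 in WT. The cause was not tested.

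With 1 library left out, FO minus MZ ran from -0.21 to 0.22 in WT and -0.11 to 0.056 over both for Ebf1, -0.29 to 0.15 and -0.081 to 0.093 for Spib, -0.021 to 0.11 in WT for Spi1, and -0.040 to 0.24 in cKO for Pou2af1. The Pou2af1 to Pou2f2 ratio ran from -0.12 to 0.047. Between genotypes the ranges in FO, in MZ and over both were -0.19 to 0.11, -0.20 to 0.23 and -0.10 to 0.068 for Ebf1, -0.12 to 0.17, -0.033 to 0.065 and -0.040 to 0.079 for Ets1, -0.027 to 0.14, -0.11 to 0.0069 and -0.040 to 0.037 for Foxo1, and -0.073 to 0.36, -0.039 to 0.070 and -0.020 to 0.15 for Spib. They were -0.30 to 0.095 in FO and -0.28 to 0.062 in MZ for Ikzf3, -0.12 to 0.052 in FO for Spi1 and -0.14 to 0.040 in MZ for Pou2f2. Interactions ran from -0.16 to 0.27 for Ebf1, -0.16 to 0.14 for Ets1, -0.13 to 0.20 for Ikzf1, -0.20 to 0.20 for Ikzf3, -0.12 to 0.15 for Pou2af1 and -0.35 to 0.088 for Spib.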
